A study of Arabidopsis thaliana with 23 samples.

Results

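AT5G24220 is a protein-coding gene on the plus strand of chromosome 5 (chr5:8225861-8227782, TAIR10) that is annotated as a lipase class 3-related protein. The small RNAs described here are those whose 5′ end fell in the 21 windows of 100 bp that tile the gene and its edges (chr5:8225701-8227800), out of 731896 windows with a read of 21 to 24 nt over all 23 libraries. Reads of 21 to 24 nt were found in 9 of the 21 windows, and 24-nt reads in 8 of them, out of 553580 such windows in the genome. The locus was chosen by measured values, because the window chr5:8226701-8226800 had many more 24-nt reads in *zmp-2* than in WT in both batches, so that contrast is given at the locus as a description, and nothing is read from its calls there. Comparisons of another line with *zmp-2* use the same *zmp-2* libraries that led to this choice.

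Small RNAs were sequenced from inflorescences of *Arabidopsis thaliana* (ecotype Col-0) in 2 sequencing batches. Batch A held the *zmp-2* mutant carrying a *ZMP-YFP* transgene (*ZMP-YFP zmp-2*, 3 libraries), *zmp-2* (3), *nrpd1-3* (2) and WT (3). Batch B held the double mutants *zmp-2 shh1-1* (3) and *zmp-2 nrpd1-3* (3), *zmp-2* (3) and WT (3). The 3 mutant alleles are T-DNA insertions, every line that carries *zmp-2* has the same allele, the transgene is driven by the promoter of *ZMP* itself, and no *shh1-1* single mutant was analysed here. The labels number the replicates without saying that they came from separate plants, so p-values measure the spread between these libraries.

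RNA polymerase IV (Pol IV) transcribes short RNAs from silenced DNA, RDR2 makes them double-stranded, and DCL3 cuts them into 24-nt siRNAs that guide DNA methylation. *NRPD1* encodes the largest Pol IV subunit. SHH1 brings Pol IV to chromatin that carries methylation on lysine 9 of histone H3. ZMP is a protein that binds Pol IV, with a zinc finger, an MDM2/SWIB domain and a Plus-3 domain. Pol IV siRNAs mainly come from transposons and repeats, and coding exons usually have few of them. Small RNA levels alone tell nothing about transcription or methylation of AT5G24220, which were not measured in these libraries.

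The libraries held 0.532 to 8.35 M (mega, as in Mb) reads of 21 to 24 nt and 0.247 to 7.72 M reads of 45S rRNA. Levels are given as RPMR, the number of reads per 1 M 45S rRNA reads of the same library, and each is exposed to how much rRNA fragment entered that library. The 45S reads ranged from 6.04 to 7.72 M in *zmp-2 nrpd1-3* and from 0.384 to 0.470 M in *zmp-2* of batch B, whereas reads of 21 to 24 nt ranged from 0.532 to 0.573 M and from 1.74 to 2.98 M in these lines. Of 21- to 24-nt reads, 24-nt reads made up 13.6% ± 0.443 in *zmp-2 nrpd1-3* (SD, n = 3) and 12.9% ± 0.569 in *nrpd1-3* (SD, n = 2), against 60.5% ± 0.654 in WT of batch B and 62.8% ± 0.184 in WT of batch A (SD, n = 3 each). In *zmp-2 shh1-1* the share was 54.0% ± 1.37 (SD, n = 3). Levels were compared within a batch only.

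Small RNAs over the mutated genes do not show whether a gene was disrupted, and they set 1 library apart. *ZMP* (AT5G63700) had 793, 9 and 5 reads of 24 nt in *ZMP-YFP zmp-2*, against 6, 2 and 6 in *zmp-2* and 1, 0 and 0 in WT of batch A. Nearly all came from replicate 1 of *ZMP-YFP zmp-2*, which also had the highest level at AT5G24220 of its group. Its part in the results was not tested, and the main comparison is given with and without it. *NRPD1* had at most 5 reads and *SHH1* at most 3 in any library.

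The gene model places the siRNAs at the 3′ end of the second exon and in the intron after it. Exon 2 runs from 8226170 to 8226797 and intron 2 from 8226798 to 8227161. The exon 2 window (chr5:8226701-8226800) therefore holds 97 coding bases followed by the first 3 bases of the intron. The next window, called the intron-start window here (chr5:8226801-8226900), and the one after it, the mid-intron window (chr5:8226901-8227000), are wholly intronic. These 3 windows are shown because they held nearly all reads of the locus and differed from each other in which lines had them. They are printed on the plus strand from the RefSeq assembly TAIR10.1, with coding bases in capitals.
Exon 2 window: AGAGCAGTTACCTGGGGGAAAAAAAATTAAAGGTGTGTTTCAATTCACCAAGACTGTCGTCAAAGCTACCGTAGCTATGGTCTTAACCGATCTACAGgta
Intron-start window: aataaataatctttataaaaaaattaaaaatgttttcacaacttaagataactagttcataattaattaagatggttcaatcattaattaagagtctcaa
Mid-intron window: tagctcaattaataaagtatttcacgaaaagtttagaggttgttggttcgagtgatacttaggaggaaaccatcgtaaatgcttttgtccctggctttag

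The 3 windows differed in base composition. In the exon 2 window 42% of bases were G or C, in the intron-start window 18% and in the mid-intron window 37%. On both strands together the exon 2 window held 6 cytosines in CG, 10 in CHG and 26 in CHH context (H is any base but G), whereas the intron-start window held none in CG or CHG and 18 in CHH. The mid-intron window held 6, 2 and 29 in the same contexts. Of the 24-mers that start in a window on the plus strand, 96% in the exon 2 window, 100% in the intron-start window and 97% in the mid-intron window occur once in the genome. These shares count positions and not reads, so how many reads there had 1 place to map is not known.

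A search of the genome with each window (blastn, E-value of at most 1e-05) set the exon apart from the intron. With the exon 2 window 2 other places were matched, both in neighbouring genes of the same family on chromosome 5. These were AT5G24180, at 88.0% identity over 100 bp (chr5:8196432-8196531), and AT5G24190, at 72.5% identity over 109 bp (chr5:8199996-8200104). The mid-intron window matched 13 other places spread over the 5 chromosomes, at 76.1 to 88.1% identity over 42 to 88 bp. All 13 lay outside annotated genes, and 12 of them had 24-nt reads in WT. The intron-start window had no match at this setting.

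The exon 2 window had no 24-nt read in any of the 6 WT libraries. In batch A it had 473, 237 and 527 reads of 24 nt in *zmp-2*, against 0, 0 and 0 in WT. These are 986, 894 and 820 RPMR in *zmp-2*. A count of 0 allows up to 11.1 to 12.1 RPMR in the WT libraries of batch A, taken as 3 reads, and the *zmp-2* mean of 900 ± 82.9 RPMR (SD, n = 3) was at least 77.0-fold higher than that floor. Per 1 M reads of 21 to 24 nt, the 3 *zmp-2* libraries had 62.7, 63.6 and 63.1. The 3 libraries thus lay closer together on that scale than in RPMR.

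In batch B the exon 2 window had 75, 56 and 39 reads of 24 nt in *zmp-2*, against 0, 0 and 0 in WT. The *zmp-2* libraries had 163, 119 and 101 RPMR, and a count of 0 allows up to 4.13 to 7.54 RPMR in the WT libraries. The *zmp-2* mean of 128 ± 31.8 RPMR (SD, n = 3) was at least 20.7-fold higher than the floor. Per 1 M reads of 21 to 24 nt these libraries had 25.2, 19.8 and 22.4. Genome-wide, 2.48% of 149021 windows tested in batch A and 1.82% of 99044 in batch B were called higher in *zmp-2* (edgeR quasi-likelihood test, fold of at least 2 and false discovery rate, FDR, of at most 0.05), and 1 of the 3 windows of the locus that had enough reads was called in each batch. That call is what the choice of the locus rests on.

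The mid-intron window, only 100 bp from the end of the exon 2 window, had 24-nt reads in every WT library. In batch A it had 30, 9 and 30 reads in *zmp-2*, against 14, 11 and 11 in WT. These gave 47.7 ± 14.3 RPMR in *zmp-2* and 46.6 ± 4.53 RPMR in WT (SD, n = 3 each), and the groups overlapped. In batch B it had 9, 6 and 10 reads in *zmp-2*, against 8, 5 and 4 in WT. The levels there were 19.4 ± 6.63 RPMR in *zmp-2* and 10.9 ± 1.72 RPMR in WT (SD, n = 3 each), with every *zmp-2* library above every WT library by a small margin (lowest 12.8 and highest 12.6 RPMR).

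Across the mid-intron window the log2 fold change of *zmp-2* over WT was 0.07 ± 0.37 (SE) in batch A, and in the other batch it was 0.81 ± 0.56. The intron-start window, between the others in position, had the fewest reads of the 3 in *zmp-2*. It had 11, 8 and 8 reads of 24 nt in *zmp-2* of batch A, against 7, 0 and 0 in WT, and 4, 3 and 2 in *zmp-2* of batch B, against 2, 2 and 1 in WT. All 7 WT reads of batch A came from 1 library, WT replicate 1.

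**Figure D1:**
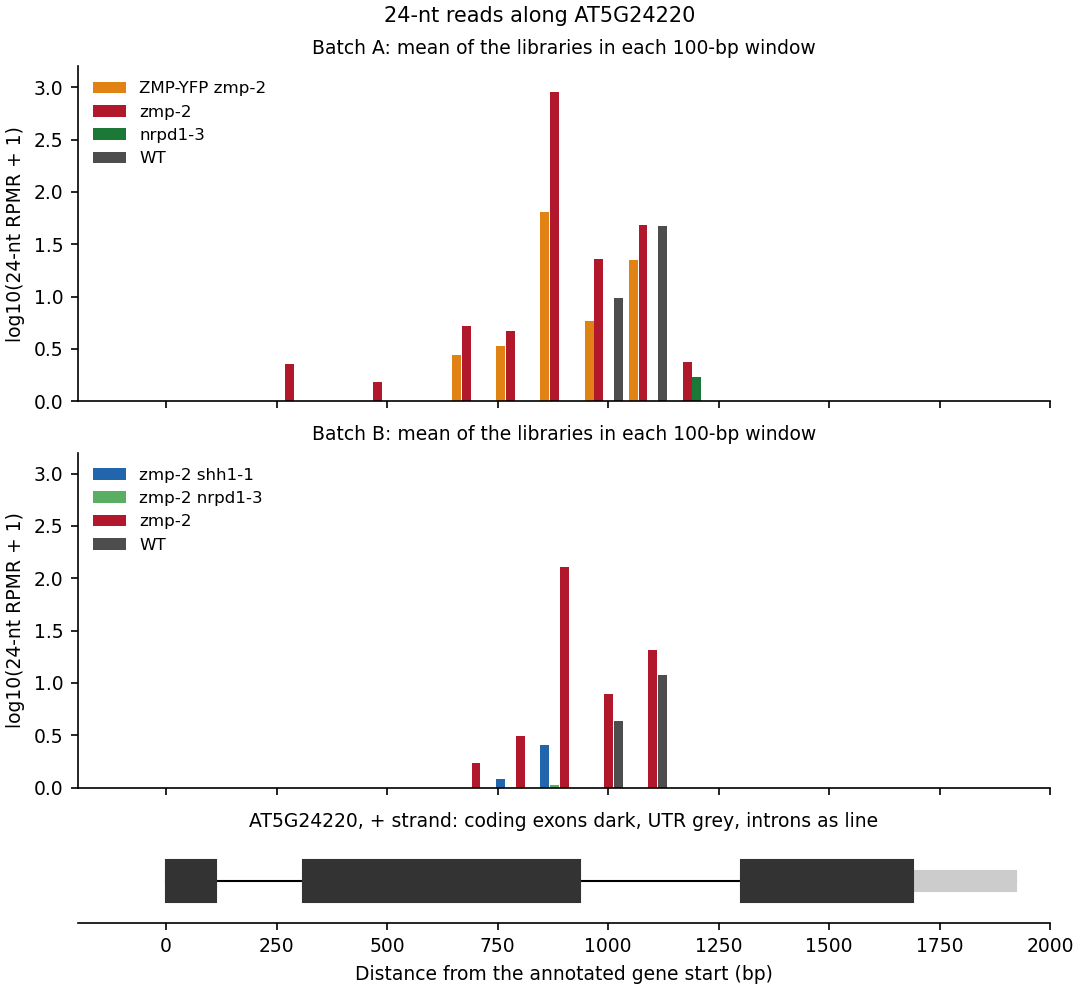
Mean 24-nt level in each 100-bp window along AT5G24220, as log10(RPMR + 1) against distance from the annotated gene start in bp, for batch A (top) and batch B (middle), with the gene model below; bars of 1 window are set side by side. The tallest bar is the exon 2 window in *zmp-2* of both batches (means 900 and 128 RPMR), where WT has none, and the WT bars stand only in the intron-start and mid-intron windows.

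The rest of the locus was nearly empty. Outside the 3 windows described, no library had more than 3 reads of 24 nt in any window. In *zmp-2* of batch A the 2 coding windows before the exon 2 window (chr5:8226501-8226600 and chr5:8226601-8226700) had 5 reads each over 3 libraries, against 0 in WT. Both are also in exon 2, and 73% and 84% of their 24-mers occur once. No 24-nt read fell in the last 7 windows, from the end of intron 2 through exon 3 and the 3′ UTR. At the edges, the first and last windows of the region held 0 reads of 21 to 24 nt and the windows just outside them 2 each over the 23 libraries.

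In *zmp-2*, most 24-nt reads of the locus therefore lay in the exon 2 window. It held 1237 of 1347 reads in *zmp-2* of batch A (91.8%, exact 95% binomial interval 90.2 to 93.2) and 170 of 208 in *zmp-2* of batch B (81.7%, 75.8 to 86.7). In WT it held 0 of 43 reads in batch A and 0 of 22 in batch B, which allows shares of up to 8.22% and 15.4% at the same confidence. In *ZMP-YFP zmp-2* it held 72 of 107 reads (67.3%, 57.5 to 76.0). No molecular identifiers were counted, so several reads may stem from 1 molecule, and the intervals cover counting error only.

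The reads at the exon 2 window were mostly 24 nt, with 23 nt next. In *zmp-2* of batch A, 71.1% ± 1.1 of the 21- to 24-nt reads there were 24 nt, 21.7% ± 2.21 were 23 nt, 3.4% ± 0.653 were 22 nt and 3.79% ± 0.698 were 21 nt (SD, n = 3). In *zmp-2* of batch B the shares were 69.3% ± 2.92, 22.3% ± 4.22, 2.67% ± 1.03 and 5.70% ± 0.668 in the same order (SD, n = 3). Between the batches, the 22-, 23- and 24-nt shares differed by less than the larger SD and the 21-nt share by more, which was not tested. Over all windows of the same libraries, 61.5% ± 0.793 were 24 nt and 13.6% ± 0.254 were 23 nt in batch A, and 60.6% ± 0.970 and 13.3% ± 0.795 in batch B (SD, n = 3 each).

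The share of 23-nt reads at the exon 2 window stood toward the high end of well-covered windows. Among the 12523 windows with at least 150 reads of 24 nt in *zmp-2* of batch A, a minimum chosen after the values were seen, the median share of 23-nt reads was 13.9% and the quartiles were 10.3% and 18.5%. The exon 2 window, at 21.5% of its summed reads, was above 85.4% of them. In *zmp-2* of batch B it was at 21.7%, above 86.9% of 4191 such windows. Its share of 22-nt reads was low by the same measure, above only 9.14% of windows in batch A and 7.80% in batch B. Its share of 24-nt reads lay in the middle, above 51.4% and 38.9% of windows. These are descriptions of 1 window and were not tested.

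Relative to 24 nt, the 23-nt class was larger still next to the splice site, from few reads and not tested. In the intron-start window 24 reads of 23 nt stood beside 27 of 24 nt in *zmp-2* of batch A, and 14 beside 9 in *zmp-2* of batch B. The 14 came as 4, 9 and 1 over the libraries, beside 4, 3 and 2 of 24 nt. In WT that window had 4 beside 7 in batch A and 3 beside 5 in batch B. The mid-intron window had 28 reads of 23 nt beside 69 of 24 nt in *zmp-2* of batch A and 12 beside 36 in WT. In batch B it had 6 beside 25 in *zmp-2* and 8 beside 17 in WT. At the exon 2 window, 23-nt reads numbered 126, 79 and 168 in *zmp-2* of batch A, against 0, 2 and 0 in WT, and 22, 15 and 16 in *zmp-2* of batch B, against 1, 0 and 0 in WT. The 21-nt and 22-nt reads there were 0 in all 6 WT libraries, beside 66 and 59 over the *zmp-2* libraries of batch A and 14 and 7 over those of batch B. More reads were therefore counted in the exon in all 4 size classes in *zmp-2*, which is again the contrast that chose the locus. For 22 nt in batch B the *zmp-2* level was 0.84 of the WT floor of 3 reads in each library. No gain in RPMR was bounded for that class there.

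**Figure D2:**
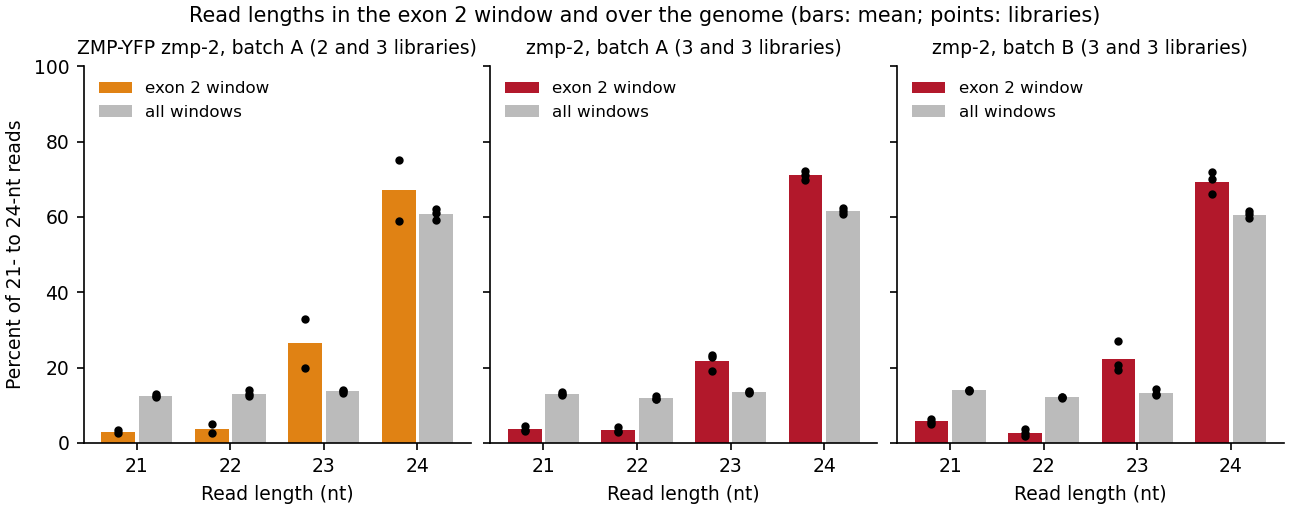
Percent of 21- to 24-nt reads of each length (nt) in the exon 2 window (coloured) and in all windows (grey), for *ZMP-YFP zmp-2* and *zmp-2* of batch A and *zmp-2* of batch B; bars are means and points are libraries with at least 20 reads in the window. The 24-nt and 23-nt shares of the exon 2 window lie above those of all windows in both *zmp-2* groups, and the 21-nt and 22-nt shares lie below.

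The *ZMP-YFP* transgene brought the exon 2 window most of the way back. It had 30, 36 and 6 reads of 24 nt in *ZMP-YFP zmp-2*, against 473, 237 and 527 in *zmp-2*. The levels were 102, 64.9 and 22.8 RPMR in *ZMP-YFP zmp-2*, all far under the lowest *zmp-2* library at 820 RPMR. Over the summed reads the level was 13.8-fold lower (exact 95% interval from counting error 10.9 to 17.7). The log2 fold change was -3.81 ± 0.32 (SE), with an edgeR FDR of 1.35e-07, and -4.21 ± 0.32 (FDR 3.94e-08) without *ZMP-YFP zmp-2* replicate 1. Genome-wide, 4.34% of 150617 windows were called lower in this comparison, and 1 of the 3 tested windows of the locus was.

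All 4 size classes fell at the exon 2 window. The log2 fold changes were -3.32 ± 0.30 for 23 nt, -3.50 ± 0.61 for 22 nt and -4.02 ± 0.60 for 21 nt (SE), with edgeR FDRs of 2.94e-13, 2.23e-06 and 4.67e-08. Of all windows tested for these sizes, 2.66%, 3.51% and 3.27% were called lower. For 23 nt, the exon 2 window was the 1 called of 3 tested windows of the locus. For 22 and 21 nt it had 4 and 3 reads in *ZMP-YFP zmp-2*, against 59 and 66 in *zmp-2*. At those 2 sizes it had enough reads for a test through *zmp-2* alone and could hardly have been other than lower, so no count of calls is given. The median of all 24-nt windows lay at -0.44 in this comparison, and relative to it the exon 2 window fell by 3.37 on the log2 scale. That difference ranged from -3.38 to -3.36 over scaling by 45S rRNA, total reads, TMM, miRNA windows and DESeq2 size factors.

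The intron windows were lower in *ZMP-YFP zmp-2* too, by less, and were not called. The mid-intron window had 9, 12 and 3 reads of 24 nt in *ZMP-YFP zmp-2*, against 30, 9 and 30 in *zmp-2*. The fold change on the log2 scale was -1.17 ± 0.43 (SE; edgeR FDR 0.0974). Its level of 21.2 ± 9.57 RPMR in *ZMP-YFP zmp-2* also lay below the 46.6 ± 4.53 RPMR of WT (SD, n = 3 each), with no overlap of the libraries in either comparison, and was not called against WT (edgeR FDR 0.312). The intron-start window had a log2 fold change of -1.91 ± 0.67 (edgeR FDR 0.0811). Within a library, the exon 2 window had 3.33, 3.00 and 2.00 times the 24-nt reads of the mid-intron window in *ZMP-YFP zmp-2*, against 15.8, 26.3 and 17.6 times in *zmp-2*, and this ratio, which needs no scaling, did not overlap between the groups.

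The return was not complete. Against WT of batch A, where no library had a read, the 24-nt level of 63.2 ± 39.5 RPMR in *ZMP-YFP zmp-2* (SD, n = 3) was at least 5.40-fold higher than the floor, and the window was called higher (edgeR FDR 0.0114). In that comparison 0.133% of 123469 windows were called higher, 1 of the 3 tested windows of the locus among them. The WT libraries took part in choosing the locus for having no reads there. The exon 2 window had enough reads for a test through *ZMP-YFP zmp-2* alone. It could hardly have been other than higher, so nothing is read from its call beside that share. The call also rested on few reads. It was lost when any 1 WT library was left out (FDR 0.0606 to 0.0630) or when *ZMP-YFP zmp-2* replicate 2 was (FDR 0.0766). Replicate 3 of *ZMP-YFP zmp-2* had 6 reads, and the 3 replicates ranged from 22.8 to 102 RPMR.

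The 24-nt share of the region in *ZMP-YFP zmp-2* did not differ from that in *zmp-2* beyond the spread of the libraries. Over the region, 24-nt reads made up 58.8% ± 17.4 of reads in *ZMP-YFP zmp-2*, against 69.4% ± 0.807 in *zmp-2* (SD, n = 3 each). The difference of -10.6 points had an exact two-sided permutation p of 0.4, where 0.1 is the smallest possible with 3 libraries against 3. The 3 *ZMP-YFP zmp-2* libraries had 76.4%, 58.5% and 41.7%, from 55, 94 and 24 reads of all 4 sizes. The region sum takes in the intron windows, which weigh more in *ZMP-YFP zmp-2*. The exon 2 window held 67.3% of the 24-nt reads there, against 91.8% in *zmp-2*. Within the exon 2 window, 65.5% of summed reads were 24 nt in *ZMP-YFP zmp-2*, against 71.3% in *zmp-2*, which was not tested.

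**Figure D3:**
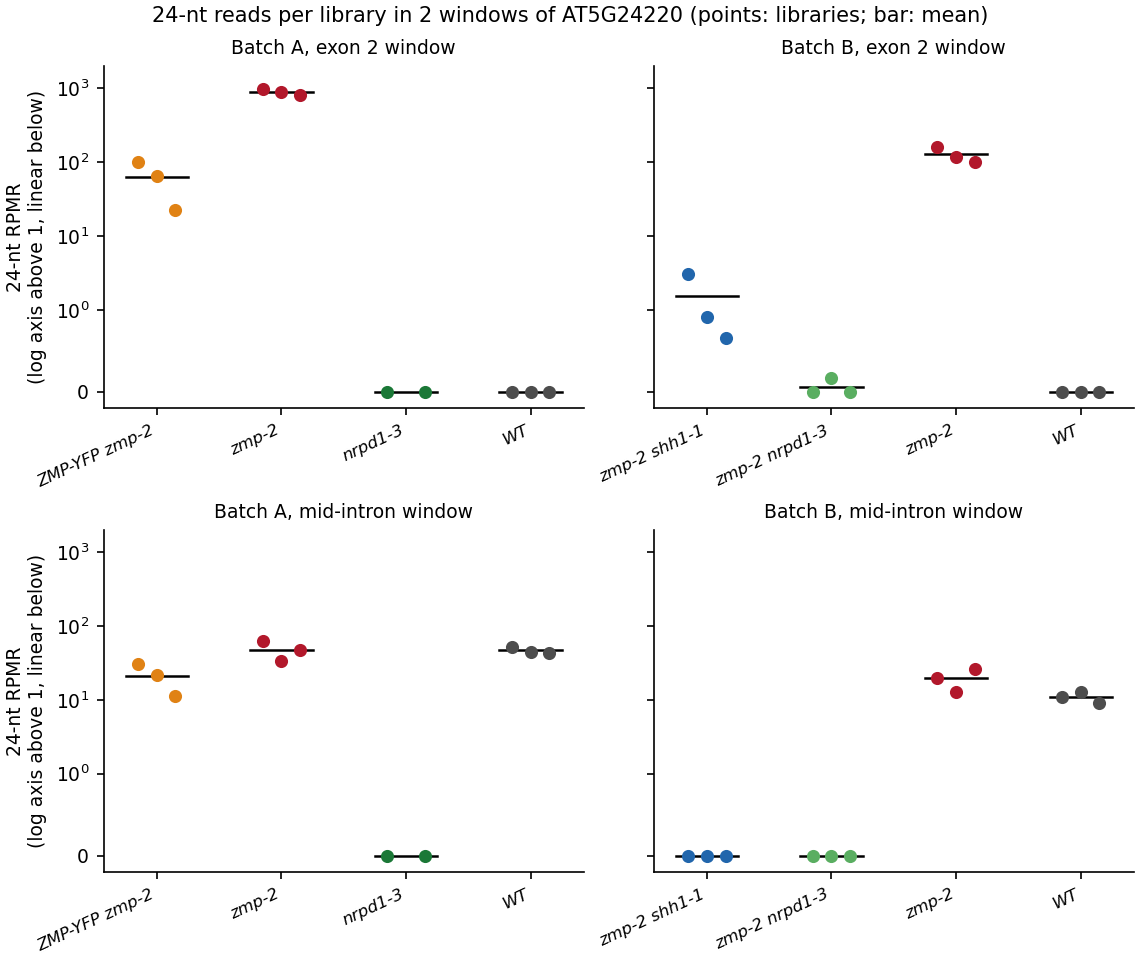
24-nt level in RPMR of each library (points; log axis above 1, linear below) in the exon 2 window (top) and the mid-intron window (bottom) of AT5G24220, in batch A (left) and batch B (right), with a bar at the mean of each group. In the exon 2 window *ZMP-YFP zmp-2* lies between *zmp-2* and WT, and *zmp-2 shh1-1* lies close to 0; in the mid-intron window WT and *zmp-2* of batch A overlap.

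Loss of SHH1 in the *zmp-2* background removed nearly all reads of the locus. The exon 2 window had 3, 1 and 1 reads of 24 nt in *zmp-2 shh1-1*, against 75, 56 and 39 in *zmp-2*. These are 3.07, 0.912 and 0.653 RPMR in *zmp-2 shh1-1*, none above the level of 3 reads in its library. Over the summed reads the level was 93.3-fold lower (exact 95% interval from counting error 39.2 to 291), and per read of 21 to 24 nt it was 42.1-fold lower (17.7 to 131). The log2 fold change was -6.35 ± 0.65 (SE) with an edgeR FDR of 2.26e-12, and -5.28 (FDR 3.27e-09) under scaling by total reads. The *zmp-2 shh1-1* libraries had 0.978 to 1.53 M 45S reads and 2.86 to 3.35 M reads of 21 to 24 nt, against 0.384 to 0.470 and 1.74 to 2.98 M in *zmp-2*.

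The mid-intron window, which had reads in WT, was also empty. It had 0, 0 and 0 reads of 24 nt in *zmp-2 shh1-1*, against 9, 6 and 10 in *zmp-2* and 8, 5 and 4 in WT. The level was at least 7.52-fold lower than in *zmp-2* and at least 4.22-fold lower than in WT, set against a floor of 3 reads in each library. Per read of 21 to 24 nt these bounds came to 3.75-fold and 1.58-fold. Both differences were called (edgeR FDR 1.43e-06 against *zmp-2* and 2.31e-05 against WT). The window had enough reads for these tests through *zmp-2* or WT alone, so it could hardly have been other than lower. By counts, levels were lower without SHH1 both in the exon, where WT had no 24-nt read, and in the intron, where it had them.

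Those calls stand beside a wide loss. Of 101166 windows tested for 24 nt, 28.9% were called lower in *zmp-2 shh1-1* than in *zmp-2*, and 2 of the 2 tested windows of the locus were. Those windows had enough reads for a test through *zmp-2* alone, so they could hardly have been other than lower. Under scaling by total 21- to 24-nt reads the share called lower was 18.8%. Against WT of batch B, 39.3% of 106513 windows were called lower, and the only tested window of the locus, the mid-intron window, was among them. That window was tested through its WT reads alone, so the same limit holds. Too few reads lay in the exon 2 window for a test against WT, with 5 reads in *zmp-2 shh1-1* beside 0 in WT. The median of all tested windows was -1.0 against *zmp-2* under 45S scaling and 0.05 under scaling by total 21- to 24-nt reads. Relative to that median the exon 2 window lay at -5.35 under the first and at -5.34 under the second, and was called under both.

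The other sizes went the same way. At the exon 2 window the 23-nt reads were 0, 0 and 1 in *zmp-2 shh1-1*, against 22, 15 and 16 in *zmp-2*, with a log2 fold change of -6.57 ± 0.78 (SE; edgeR FDR 7.45e-16). The 21-nt reads were 0 in every *zmp-2 shh1-1* library, against 6, 5 and 3 in *zmp-2* (edgeR FDR 6.58e-06), and the level was at least 4.06-fold lower, or at least 1.90-fold per read of 21 to 24 nt. Genome-wide, 53.0% of the windows tested for 23 nt and 23.1% of those tested for 21 nt were called lower. At these sizes too, the tested windows of the locus had enough reads through *zmp-2* alone, so no count of calls is given for them. No window of the locus had enough 22-nt reads to be tested. The size mix itself could not be compared, because no *zmp-2 shh1-1* library had 20 reads in the region.

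**Figure D4:**
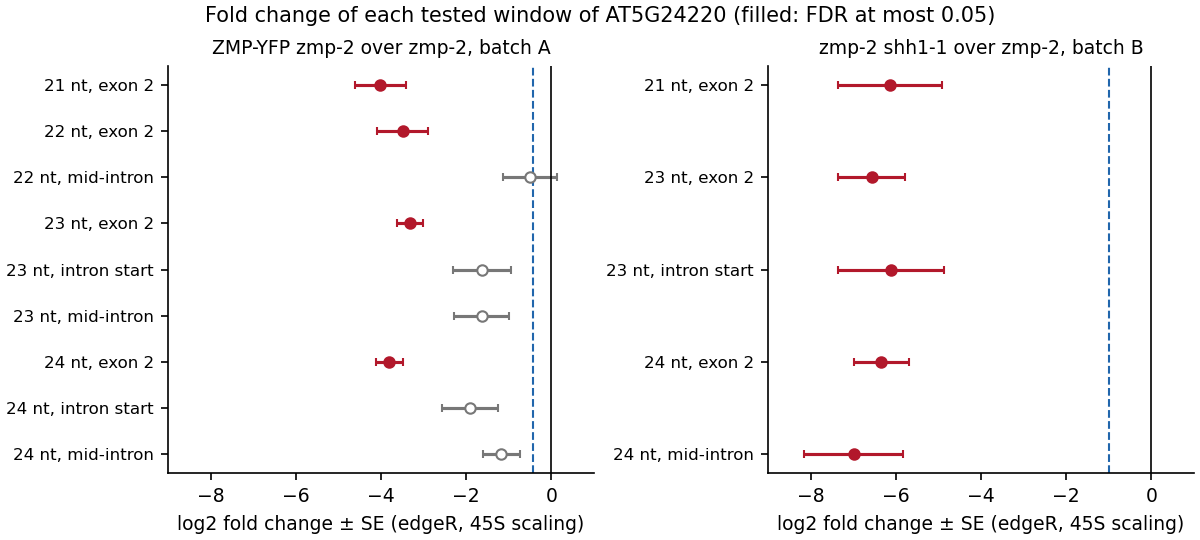
log2 fold change ± SE (edgeR, 45S scaling) of every tested window of AT5G24220 by read length, for *ZMP-YFP zmp-2* over *zmp-2* in batch A (left) and *zmp-2 shh1-1* over *zmp-2* in batch B (right); filled points passed an FDR of 0.05, and the dashed line is the median of all 24-nt windows tested. On the left only the exon 2 window passed, at -3.32 to -4.02, and on the right the points lie between -7.00 and -6.12 for windows that had enough reads through *zmp-2* alone.

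Both windows lost their 24-nt reads without NRPD1. In batch B the exon 2 window had 0, 1 and 0 reads of 24 nt in *zmp-2 nrpd1-3*, against 75, 56 and 39 in *zmp-2* (edgeR FDR 7.86e-13). The mid-intron window had 0, 0 and 0, against 9, 6 and 10 (edgeR FDR 3.00e-09). This was at least 42.8-fold lower in RPMR, but per read of 21 to 24 nt the *zmp-2* level lay below the floor of the double mutant, so no fold was bounded, and the call was lost under TMM (FDR 0.117). In batch A it had 0 and 0 in *nrpd1-3*, against 14, 11 and 11 in WT (edgeR FDR 2.29e-07). This was at least 13.1-fold lower in RPMR and at least 1.26-fold per read of 21 to 24 nt, and it was not called under TMM (FDR 0.472). Under 45S scaling nearly every window was called lower, 98.8% of 57939 in *zmp-2 nrpd1-3* and 98.7% of 81451 in *nrpd1-3*. The shares were 65.5% and 66.4% under scaling by total reads, and 23.6% and 4.85% under TMM. In these comparisons 2 of the 2 and 1 of the 1 tested windows of the locus were called under 45S scaling, a share near that background. Those windows had enough reads for a test through *zmp-2* or WT alone, so they could hardly have been other than lower. Relative to the median of all windows under the same scaling in *zmp-2 nrpd1-3* against *zmp-2*, the exon 2 window lay at -1.87 under 45S scaling, -0.15 under total reads, 0.77 under TMM, -1.43 under miRNA windows and -2.18 under DESeq2 size factors.

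A few reads remained without Pol IV. The 2 *nrpd1-3* libraries held 6 reads of 21 to 24 nt over the whole region, 5 of them 23 nt, and the 3 *zmp-2 nrpd1-3* libraries held 1. Between the 2 double mutants, *zmp-2 shh1-1* had 6 reads of 24 nt in the region and *zmp-2 nrpd1-3* had 1. *zmp-2 nrpd1-3* had more 45S reads and fewer reads of 21 to 24 nt, as given above. The region level was 1.76 ± 1.15 RPMR in *zmp-2 shh1-1* and 0.0552 ± 0.0956 RPMR in *zmp-2 nrpd1-3* (SD, n = 3 each), a ratio of 33.3 over the summed reads with a counting interval of 4.04 to 1532. Per read of 21 to 24 nt the ratio was 1.05 (0.128 to 48.4) and the libraries overlapped, so the order of the double mutants depends on the scaling. No window had enough reads to be tested between them.

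Summed over the region, the mean 24-nt level was highest in *zmp-2* in both batches, and the sum takes in the intron windows, where WT had reads. In batch A the levels were 93.2 ± 52.5 RPMR in *ZMP-YFP zmp-2*, 981 ± 97.4 in *zmp-2* and 55.2 ± 19.4 in WT (SD, n = 3 each), with 0.716 ± 1.01 in *nrpd1-3* (SD, n = 2). *ZMP-YFP zmp-2* and WT, neighbours in that order, overlapped (exact permutation p = 0.4). In batch B the levels were 1.76 ± 1.15 in *zmp-2 shh1-1*, 0.0552 ± 0.0956 in *zmp-2 nrpd1-3*, 157 ± 32.3 in *zmp-2* and 14.3 ± 3.12 in WT (SD, n = 3 each). None of the group pairs compared in batch B overlapped in RPMR, whereas the double mutants overlapped per read of 21 to 24 nt. For those pairs other than *zmp-2* and WT, which were not tested because that contrast chose the locus, and for *ZMP-YFP zmp-2* against *zmp-2* the exact two-sided permutation p was 0.1, the smallest possible with 3 against 3, and 0.14 after adjustment over the 7 comparisons tested. For *nrpd1-3* against WT it was 0.2, the smallest possible with 2 against 3 (0.233 adjusted).

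The neighbours of AT5G24220 were compared in the same way. Within 10 kb on either side, outside the region, 21 windows were tested for *zmp-2* against WT in batch A and 15 in batch B, and 0 were called in either batch (edgeR), with 5 and 0 higher at an unadjusted p under 0.05 and 0 and 0 called by DESeq2, which gave 16 and 10 of them an adjusted p. Outside the region, the nearest window with at least 10 reads in WT lay 2100 bp before the exon 2 window, and the nearest after it lay 6900 bp away. In *zmp-2 shh1-1* against *zmp-2*, 12 of the 13 tested neighbouring windows were called lower (7 by DESeq2), with a median log2 fold change of -3.78. In *ZMP-YFP zmp-2* against *zmp-2*, 2 of 21 were called lower, with 5 lower at an unadjusted p under 0.05 and 0 called lower by DESeq2 among the 13 with an adjusted p. Of all windows tested, 28.9% were called lower in *zmp-2 shh1-1* and 4.34% in *ZMP-YFP zmp-2*. In *zmp-2* against WT, 2.48% (batch A) and 1.82% (batch B) were called higher, so 0 calls among 21 and 15 windows show little. The neighbours' median log2 fold change of *zmp-2* over WT was 0.58 and 0.25, beside 0.08 and -0.10 over all tested windows. Most tested neighbours passed the read minimum against *zmp-2 shh1-1* mainly through *zmp-2*, so they could hardly have been other than lower.

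**Figure D5:**
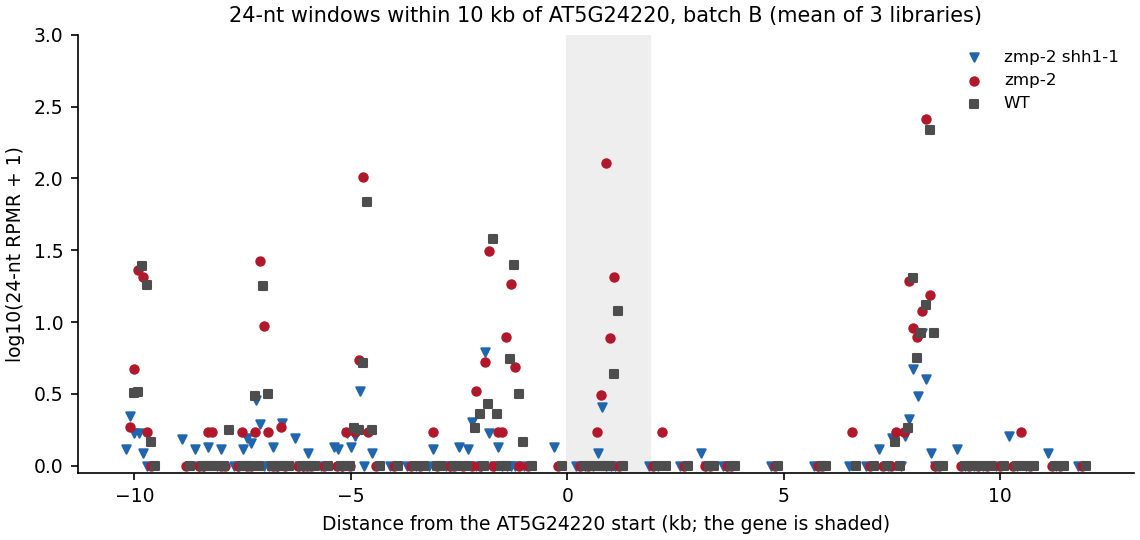
Mean 24-nt level of every window with reads within 10 kb of AT5G24220 in batch B, as log10(RPMR + 1) against distance from the gene start in kb, for *zmp-2 shh1-1*, *zmp-2* and WT (3 libraries each; markers of the first and last are shifted slightly sideways). The highest point in the shaded gene (128 RPMR) belongs to *zmp-2*, and the highest neighbouring window stands at 257 RPMR in *zmp-2* and 217 in WT, with 7.33 RPMR in *zmp-2 shh1-1*, its highest value there.

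Of the annotated genes there, AT5G24240 and AT5G24210 had windows called lower in *zmp-2 shh1-1* than in *zmp-2*, 4 of 5 and 2 of 2 tested, beside 28.9% of all windows tested. AT5G24240, a phosphatidylinositol 3- and 4-kinase family gene, had 15.7 ± 5.27 RPMR of 24-nt reads in *zmp-2 shh1-1*, against 303 ± 55.5 in *zmp-2* and 262 ± 143 in WT of batch B (SD, n = 3 each). AT5G24210, another member of the tandem lipase-like family, had 6.93 ± 3.49 RPMR in *zmp-2 shh1-1*, against 38.5 ± 11.3 in *zmp-2* and 21.7 ± 5.14 in WT of batch B (SD, n = 3 each). AT5G24230, the next relative downstream, had 0 to 5 reads in any group. AT5G24215, AT5G03695 and AT5G24260, the other genes annotated there, had at most 8 reads in any group.

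The stretch most like the exon 2 window had a few 24-nt reads, in *zmp-2* only. At AT5G24180, the 100-bp stretch with 88.0% identity had 12 reads of 24 nt over the *zmp-2* libraries of batch A and 6 over those of batch B, against 0 in every other group. AT5G24180 had 1 window tested in *zmp-2* against WT of batch A and 1 in *ZMP-YFP zmp-2* against *zmp-2*, and 0 were called in either. None of its windows had enough reads for a test in batch B. The stretch in AT5G24190 had 3 in *zmp-2* of batch A, against 1 in WT, 1 in *nrpd1-3* and 0 in *ZMP-YFP zmp-2*. A read that matches more than 1 copy could be placed at either, and how far this moved reads between the copies was not tested.

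The list of lipase class 3 genes held 43 genes, of which 10 had a window with enough reads in batch A and 6 in batch B. In *zmp-2* against WT, 3 of the 10 and 2 of the 6 had a window called higher. AT5G24220 is among them by choice. Among all protein-coding genes tested, 13.6% in batch A and 8.72% in batch B had a window called higher. Besides AT5G24220, AT5G24200 was called higher in both batches, in 2 of its 10 tested windows in batch A and 1 of 8 in batch B. AT5G24190 was called higher in batch A and had no window with enough reads in batch B. In *ZMP-YFP zmp-2* against *zmp-2*, 3 of the 10 genes tested had a window called lower, beside 19.2% of all protein-coding genes tested.

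AT5G24200 differed from AT5G24220 in abundance and in its reads without SHH1. It had 4203 ± 620 RPMR of 24-nt reads in *zmp-2* of batch A and 3581 ± 835 in WT, summed over the gene (SD, n = 3 each). In *zmp-2 shh1-1* it had 558 ± 269 RPMR, against 817 ± 94.2 in *zmp-2* of batch B (SD, n = 3 each), and 0 of its 11 tested windows were called lower by edgeR, with 0 lower at an unadjusted p under 0.05 and 0 called lower by DESeq2, which did not give each of them an adjusted p. In *ZMP-YFP zmp-2* against *zmp-2*, 3 of its 10 tested windows were called lower. Over the list, 5 of the 6 genes tested had a window called lower in *zmp-2 shh1-1* against *zmp-2*, beside 54.8% of all protein-coding genes tested.

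Among 2040 protein-coding genes with at least 200 reads of 24 nt, outside 10 kb of the region, the 3 whose summed 24-nt log2(RPMR + 1) followed that of AT5G24220 most closely over the 23 libraries were AT1G35170 (Pearson r = 0.969), AT3G28590 (0.963) and AT1G45015 (0.961). They share the libraries, the scaling and the loss of 24-nt reads without NRPD1, so a high r is easily reached and is given as a description. AT1G35170, annotated with a TLC lipid-sensing domain, had 67.4 ± 30.6 RPMR in *ZMP-YFP zmp-2*, 219 ± 2.28 in *zmp-2* and 46.4 ± 13.9 in WT of batch A (SD, n = 3 each). The batch B levels were 3.32 ± 1.76 RPMR in *zmp-2 shh1-1*, 41.7 ± 2.82 in *zmp-2* and 14.9 ± 8.96 in WT (SD, n = 3 each).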

How the data were processed

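The authors trimmed the reads with custom scripts, removed reads of structural RNAs and counted 45S rRNA reads with Bowtie 1.1.0, and aligned the rest to TAIR10 with ShortStack without mismatches, placing reads with several matches by the density of unique reads nearby. Each read was assigned to the 100-bp window of its 5′ end. The deposited files give, for each window and read length (the other deposited column, in nt), the count of reads, the RPM (per 1 M, or mega, mapped reads, by the authors) and a score, the RPMR computed by the authors. A window absent from a library's table counted as 0. Per-sample columns left unmapped numbered 0.

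Counts were tested with edgeR 4.0.16 (R 4.3.3; quasi-likelihood test, 45S rRNA reads as library size, windows with at least 10 reads in a fit, 2 groups of 1 batch), with a fold of at least 2 and a Benjamini-Hochberg FDR of at most 0.05 over all windows of a size. Region sums were compared as log2(RPMR + 1) by exact two-sided permutation with adjustment over 7 comparisons. Depth was 0.532 to 8.35 M reads of 21 to 24 nt per library. Alternatives were other scalings, DESeq2 1.42.0, no count filter, one fit for all groups of a batch, a replicate block and leaving out each library. On simulated data with the means and library sizes of *ZMP-YFP zmp-2* and *zmp-2*, 41 of 75, 41 of 57 and 57 of 68 windows changed by a log2 fold of 2, 3 and 4 were recovered, with 3 false calls among 50000 windows. The simulation used a fixed spread between libraries, not one estimated from these data. Changes were placed only in windows above a minimum mean count, so the rates need not hold for windows with few reads. Similar sequences were searched with blastn 2.17.0, and other steps used Python 3.11.15, numpy 2.4.6, pandas 2.3.3, scipy 1.17.1 and matplotlib 3.10.9. Named genes were the locus, genes within 10 kb, lipase class 3 genes called in both batches, the mutated genes and the 3 most alike in pattern; AT5G24180 and AT5G24190 were added from the sequence search after their values were seen. The windows and lists were chosen with earlier results of these data known.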

Additional observations from a re-analysis of the deposited data

How the results depend on the processing

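The exon 2 window was called in the same direction under every alternative in which it was tested, for all 4 sizes in *ZMP-YFP zmp-2* against *zmp-2* (24 nt, log2 fold change -4.21 to -3.47) and for 24 nt in *zmp-2 shh1-1* against *zmp-2* (-7.12 to -5.28). Few reads limit the rest, and the cause of a change was not tested unless stated. Leaving out 1 library, the windows of the locus called ranged from 1 to 2 for *zmp-2* against WT in batch A (2 without WT replicate 1), from 0 to 1 for *ZMP-YFP zmp-2* against WT, from 0 to 1 for 21 nt and from 1 to 2 for 23 nt in *zmp-2 shh1-1* against *zmp-2*, and from 0 to 1 for *zmp-2 shh1-1* against WT. The losses in *zmp-2 shh1-1* came without *zmp-2* replicate 1 or 2 (21 nt), *zmp-2* replicate 2 (23 nt) and WT replicate 1, where fewer windows had 10 reads.

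For *nrpd1-3* against WT, 0 windows were called under TMM and DESeq2 (which gave the mid-intron window no adjusted p, so that is no lost call) and 2 without a filter or in one fit for all groups. For *zmp-2 nrpd1-3* against *zmp-2*, 1 was called under TMM and 4 without a filter. One fit for all groups called 2 for *zmp-2 shh1-1* against WT and 1 for *zmp-2 shh1-1* against *zmp-2 nrpd1-3*, where no filter also called 1. Same-numbered replicates did not deviate together (correlations -0.0174 to 0.0203), so they were not paired; the replicate block gave -3.88 for *ZMP-YFP zmp-2* and -6.34 for *zmp-2 shh1-1* against *zmp-2* at the exon 2 window and changed no call of the locus.

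The log2 difference of region sums for *zmp-2* against WT came to 9.81 (batch A) and 6.98 (batch B) for the exon 2 window alone. For the whole region in batch B it was 3.37, against 3.81 per miRNA-window read and 2.77 with a pseudocount of 10. For the exon 2 window alone it was 0 for *nrpd1-3* against WT, where both had 0 reads, and reversed to 1.23 for *zmp-2 shh1-1* against WT, from 5 reads beside 0. The genome-wide split of calls moved with the scaling or with DESeq2, which also changes the test: the share higher was 29.0% and up to 48.4% for *zmp-2* against WT in batch A, 22.9% and up to 44.1% in batch B, 48.0% and up to 66.3% (76.5% by DESeq2) for *ZMP-YFP zmp-2* against *zmp-2*, 22.7% and up to 51.0% against WT, 0.0957% and up to 25.2% (66.9% by DESeq2) for *nrpd1-3*, 1.02% and up to 22.8% for *zmp-2 shh1-1* against *zmp-2* (21 nt 2.09% and 37.6%, 22 nt 1.58% and 39.6%), and 5.11% and up to 36.7% against WT.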
